A study of Arabidopsis thaliana with 12 samples.

Results

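The 75 genes described here stood high in leaf 8 of Arabidopsis plants carrying a platinum wire in the petiole, and stayed near their control level in leaf 13 when another leaf was wounded. They were chosen from 13356 genes with a probe set of their own by 2 measured differences of group means on the log2 scale. The mean of wired leaf 8 without current had to lie at least 1.5 above the mean of unwounded leaf 13, and the mean of leaf 13 after wounding had to lie within 0.6 of the unwounded mean. Of 85 genes that met both, 7 plastid-encoded transcripts and 3 nuclear genes (COR27, AT4G33980 and WRKY53) were left out. The values that chose the genes are given below as a description only, with no test.

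Expression was read on 12 arrays, 3 in each of 4 groups, all from 5-week-old soil-grown plants of the accession Col-0 under 10 h of light. The groups were leaf 13 of unwounded plants, leaf 13 taken 1 h after forceps had wounded 40% of leaf 8, at its apex, the blade of leaf 8 with a wire and no current, and the blade of leaf 8 taken 1 h after 40 µA had been passed through such a wire for 10 s. Leaf position, the wire and the experiment differ together between the leaf 8 and leaf 13 groups and cannot be told apart. No harvest time is listed for unwounded leaf 13 or for leaf 8 without current, so a match in time of day is not known. Whether each array holds a plant of its own or a pool is not stated, and the p-values therefore speak only of variation among these arrays, part of which may be technical.

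The leaves of a rosette form in sequence, so leaf 8 is older than leaf 13 on the same plant. Ageing leaves are known to shift from growth towards export of nitrogen, sugars and metals, and to carry different levels of stress and defence transcripts from young leaves. Electrical signals travel between leaves through the vasculature after wounding and switch on jasmonate responses in undamaged leaves, and injected current is used to imitate them. These sentences are background and were not measured here.

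Levels are log2 RMA values. Over all genes, r between arrays was 0.991 to 0.996 within a group and at least 0.953 across groups. The mesophyll genes RCA, LHCB4.1 and LHCB4.2, needed for carbon fixation and light harvesting, had means of 12.96, 12.87 and 12.55 in unwounded leaf 13 and of 12.80, 12.64 and 12.47 in wired leaf 8. These are levels near the top of the deposited range, as a leaf label calls for. The stomatal regulator FMA, the phloem sucrose transporter SWEET11 and the trichome regulator TRY, each the 1 measured marker of its cell type, differed by -0.99, 0.70 and -0.29 between wired leaf 8 and unwounded leaf 13, and no marker of dividing cells was measured. Their part in the differences below was not tested, and in whole leaves fewer cells of a type and less RNA per cell cannot be told apart.

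Across the 75 genes the level in unwounded leaf 13 had a median of 4.83, with a range of 2.28 to 9.32, and in wired leaf 8 without current a median of 7.09, with a range of 4.0 to 10.87. The median over all genes was 4.31 and 4.37 in these groups. The difference between wired leaf 8 without current and unwounded leaf 13 had a median of 1.85 and reached 4.02, against a median of -0.02 over all genes. The 3 no-current arrays lay above all 6 leaf 13 arrays for 74 genes, a split seen in 17.0% of all genes, which the choice of members largely sets. The single exception was AT5G26270, which is described below.

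**Figure D1:**
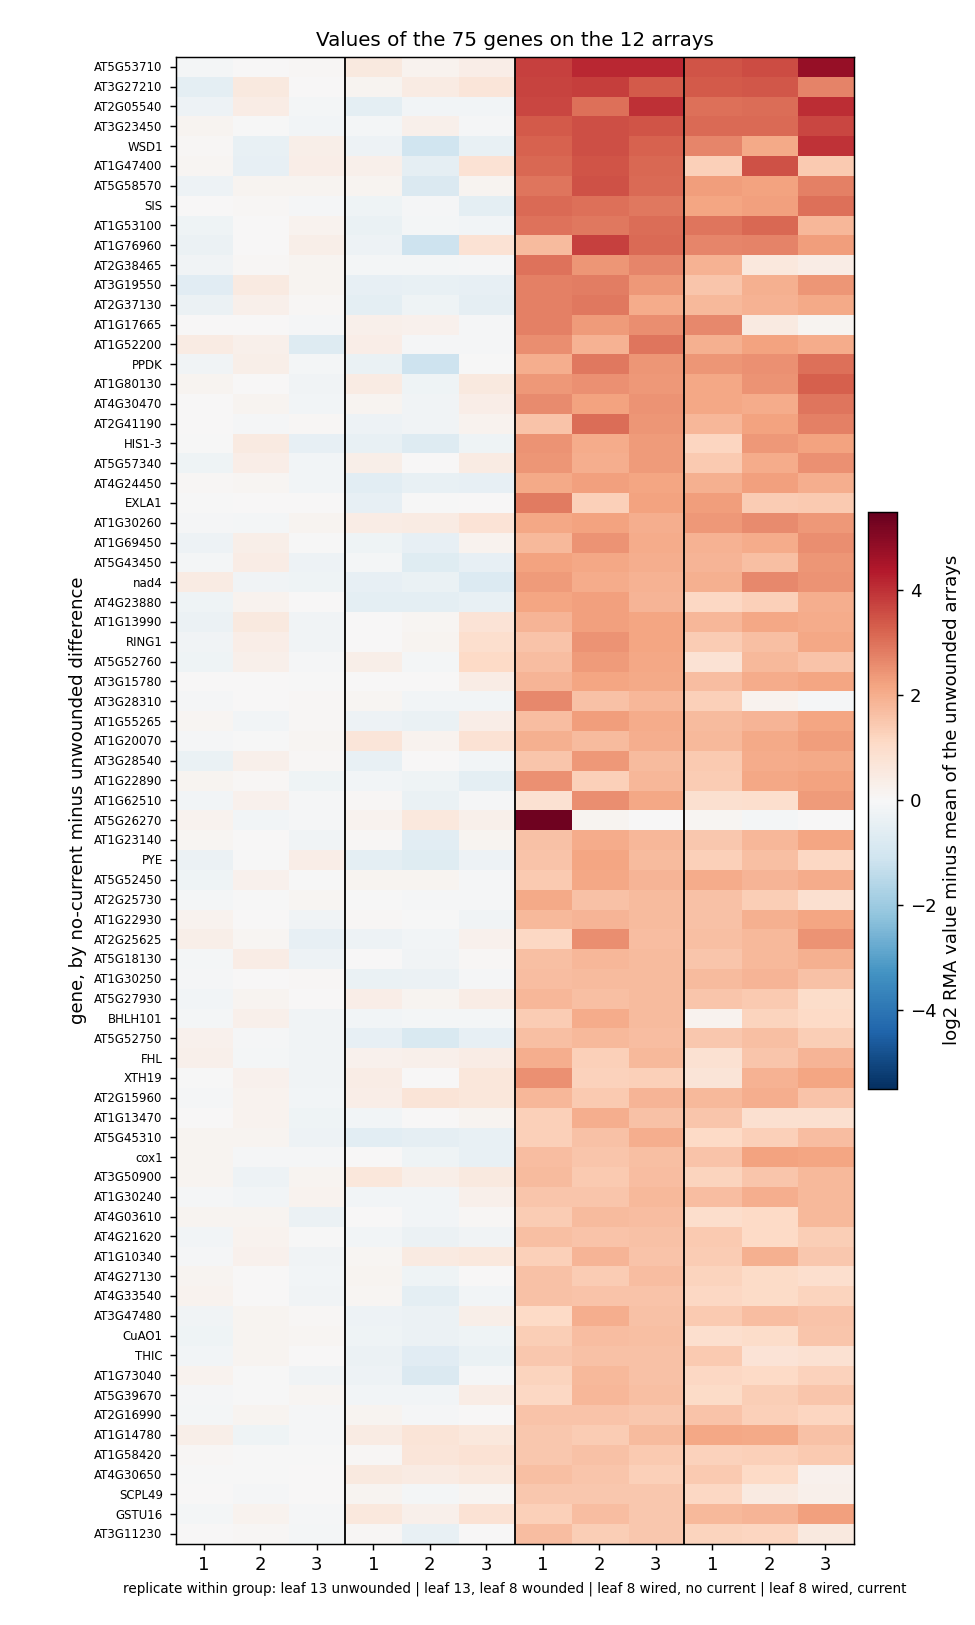
Each row is a gene and each column an array, with colour showing the log2 RMA value minus the mean of the 3 unwounded leaf 13 arrays. Both leaf 13 groups are pale and both leaf 8 groups red, except for AT5G26270, which is high on no-current replicate 1 alone, and a few genes that pale again after current.

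AT5G53710 had the largest difference. It read 3.09, 3.20 and 3.26 in unwounded leaf 13, 3.70, 3.39 and 3.54 after wounding, 6.95, 7.32 and 7.34 in wired leaf 8, and 6.64, 6.76 and 7.98 after current. The leaf 8 and leaf 13 arrays did not overlap, and the wired leaves without current stood 4.02 above the unwounded leaves, a 16.2-fold difference. AT3G27210 followed with means of 3.46 ± 0.53 and 7.10 ± 0.22 (SD, n = 3), a difference of 3.63, AT2G05540 with 5.82 ± 0.36 and 9.40 ± 0.49, and AT3G23450 with 4.73 ± 0.15 and 8.18 ± 0.09. The reference gives these 4 genes a locus identifier and no product name, as for most of the set. Behind WSD1 at 3.34 came AT1G47400 at 3.26, AT5G58570 at 3.19, SIS at 3.01, AT1G53100 at 3.01, AT1G76960 at 2.88 and AT2G38465 at 2.69. AT3G19550, AT2G37130, AT1G17665 and AT1G52200, at 2.65, 2.59, 2.57 and 2.46, completed the 15 largest differences.

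Just inside the limit lay AT3G11230, GSTU16 and SCPL49, at 1.5 each. Just outside lay AT2G23910 at 1.494, AT1G79520 at 1.481 and AT1G62290 at 1.48, so the limit cuts a continuous range. By Pearson correlation over the 12 arrays, which largely follows the 4 groups, the genes most like AT5G53710 were AT3G23450, AT3G15780 and AT4G30470 (r = 0.990, 0.989 and 0.989), all members. Those most like AT3G27210 were AT2G16990, a member, AT5G18525 and AT1G24350 (r = 0.987, 0.985 and 0.984), and those most like AT2G05540 were AT3G62650, AT2G38800 and AT5G54090 (r = 0.990, 0.987 and 0.987).

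Iron regulation is represented, among the members with a product name, by a pair of transcription factor genes. Members with a locus identifier alone were not searched for iron roles. PYE (POPEYE) encodes a basic helix-loop-helix protein that is induced by iron shortage and restrains iron storage and transport genes, and BHLH101 encodes a related factor of the group that drives iron uptake under shortage. PYE read 4.29, 4.58 and 5.00 in unwounded leaf 13, 4.08, 3.95 and 4.34 after wounding, 6.20, 6.78 and 6.37 in wired leaf 8, and 5.91, 6.27 and 5.75 after current. BHLH101 read 2.19, 2.57 and 2.08, then 2.12, 2.17 and 2.16, then 3.67, 4.31 and 4.01, and after current 2.49, 3.52 and 3.39. Both were lowest in leaf 13, where BHLH101 sat near the bottom of the array's range, so its difference of 1.72 may understate the fold.

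Of 25 iron genes listed after these 2 had been seen, 3 others were measured. ILR3 and bHLH34, whose products act upstream in the same response, differed by -0.08 and -0.29 between wired leaf 8 and unwounded leaf 13, and bHLH104, of the same group, by 0.73. The list's uptake and storage genes were not analysed here. After current BHLH101 fell by 0.86 (SE 0.23, n = 3, limma adjusted p = 0.0470), while PYE was at -0.47 (SE 0.19, limma adjusted p = 0.247), bHLH104 at -0.28 and bHLH34 at 0.39. The call of BHLH101 was lost on the leaf 8 arrays alone, with median centring and without current replicate 1 (limma adjusted p = 0.176, 0.0512 and 0.0931), the last with a change of -0.54.

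Among the members with a product name, PPDK, AT4G24450 and THIC belong to primary metabolism. PPDK, pyruvate orthophosphate dikinase, makes phosphoenolpyruvate from pyruvate and in Arabidopsis leaves is known for helping to move nitrogen out of ageing tissue. It read 5.72, 6.25 and 5.82 in unwounded leaf 13, 5.55, 4.78 and 5.92 after wounding, 7.91, 8.85 and 8.35 in wired leaf 8 and 8.34, 8.46 and 8.95 after current, and the leaf 8 arrays were all above the leaf 13 arrays. AT4G24450, whose synonyms in the reference include phosphoglucan water dikinase, of a family that phosphorylates starch, had means of 5.31 and 7.48 in unwounded leaf 13 and wired leaf 8. THIC, which makes the pyrimidine part of thiamine in the chloroplast, had means of 9.32 ± 0.16 and 10.87 ± 0.07.

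After current PPDK was at 0.21 (SE 0.27, limma adjusted p = 0.839) and AT4G24450 at -0.09 (SE 0.11, limma adjusted p = 0.806), neither beyond the spread between arrays. THIC was at -0.54 (SE 0.15, limma adjusted p = 0.0691): its current arrays read 10.76, 10.09 and 10.14, all below the no-current arrays at 10.79, 10.91 and 10.92, but replicate 1 only just. Without current replicate 1 THIC was at -0.76 and passed (limma adjusted p = 0.00176).

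PPDK was the 1 measured gene of 21 on a list of nutrient export genes. Of 26 leaf senescence genes 2 were measured and neither was a member: SAG101 differed by 0.63 between wired leaf 8 and unwounded leaf 13, and SAG29 by -0.09. After current these were at -0.19 and 0.00, and limma called 0 of the 2, with 0 at an unadjusted p under 0.05. Of 29 salicylic acid and defence genes and 17 wound genes, 1 each was measured, GRX480 and STZ, which were 3.97 and 3.83 higher after wounding and so could not be members. None of the 22 genes on the circadian and cold list had a named probe set of its own among those used here, although GI and COR27, which were not on it, did.

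Next come WSD1, SIS, HIS1-3, CuAO1 and GSTU16, named members with roles at the leaf surface or under stress. WSD1, a wax ester synthase of the cuticle, read 8.06, 8.39 and 8.08 in wired leaf 8 and 7.51, 6.92 and 8.81 after current, against 4.89, 4.44 and 5.16 in unwounded leaf 13. SIS, listed as a salt-induced serine-rich protein, rested at 4.93 ± 0.08 in unwounded leaf 13 and 7.94 ± 0.10 in wired leaf 8. HIS1-3, a linker histone that drought and abscisic acid are known to induce, had means of 3.80 and 6.07. CuAO1, a copper amine oxidase that breaks down polyamines and releases hydrogen peroxide, had means of 4.74 and 6.30, and GSTU16, a tau-class glutathione transferase, 5.99 and 7.49.

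After current none of these 5 passed in limma. WSD1 was at -0.43 (SE 0.36), SIS at -0.53 (SE 0.18), HIS1-3 at -0.34 (SE 0.27) and CuAO1 at -0.40 (SE 0.15). Of these 4, SIS and CuAO1 were lower at an unadjusted limma p under 0.05, as were 7.92% of all genes. GSTU16 had the largest upward change of the whole set, at 0.47 (SE 0.15, limma adjusted p = 0.118), and its current arrays (7.76, 7.88 and 8.23) lay above the no-current arrays (7.31, 7.68 and 7.48). Current replicate 3 decided several of these values. Without it WSD1 was at -0.96 (limma adjusted p = 0.0493), SIS at -0.80 (limma adjusted p = 0.00262) and CuAO1 at -0.58 (limma adjusted p = 0.0245). With current replicate 1 or 2 left out instead, WSD1, SIS and CuAO1 did not pass (limma adjusted p = 0.378 to 0.996). HIS1-3 turned to 0.03 without current replicate 1, its lowest current array at 4.99.

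XTH19 and EXLA1, both of the cell wall, varied between replicates. XTH19, an enzyme that cuts and rejoins xyloglucan, read 5.17, 3.90 and 3.96 in wired leaf 8 and 3.38, 4.58 and 4.84 after current. EXLA1, an expansin-like wall protein, read 8.31, 6.75 and 7.67 and then 7.76, 6.85 and 6.89. Their changes after current, at -0.08 (SE 0.35) and -0.41 (SE 0.30), were within that spread. RING1, a ubiquitin ligase known for its part in programmed cell death, had means of 8.11 in unwounded leaf 13 and 10.18 in wired leaf 8 and was at -0.35 (SE 0.26) after current. FHL, which carries phytochrome A into the nucleus, had means of 2.82 and 4.52 and was at -0.28 (SE 0.22).

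Of 16 genes on the fixed wall list 3 expansin genes were measured, and none was a member. EXPA16 differed by 2.00 between wired leaf 8 and unwounded leaf 13 but moved by 1.36 after wounding, and EXPA8 and EXPB1 differed by -1.78 and -2.69.

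The transcripts nad4 and cox1, which encode subunits of respiratory complexes I and IV in the mitochondrial genome, met the rule as well. The gene nad4 read 5.87, 5.24 and 5.21 in unwounded leaf 13 and 7.79, 7.48 and 7.34 in wired leaf 8. Of 16 mitochondrial symbols measured, 13 were higher in wired leaf 8, with a median difference of 0.26 and none but these 2 above 0.94. After current cox1 was at 0.36 (SE 0.16, limma adjusted p = 0.301), the third largest upward change of the set after GSTU16 and AT1G14780 (0.40, SE 0.16), and nad4 was at 0.27 (SE 0.20). Current replicate 1 was the lowest for both, and without it cox1 passed at 0.56 (limma adjusted p = 0.0187). Without current replicate 2 or 3 cox1 did not pass (limma adjusted p = 0.705 and 0.56). The 7 plastid-encoded transcripts left out by the rule differed by 1.56 to 3.30 between the same leaves. They had first met the same limit on this difference, which sets the low end of that range. Other plastid-encoded transcripts are not described here, so these values cannot show whether plastid transcripts in general were higher in wired leaf 8.

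**Figure D2:**
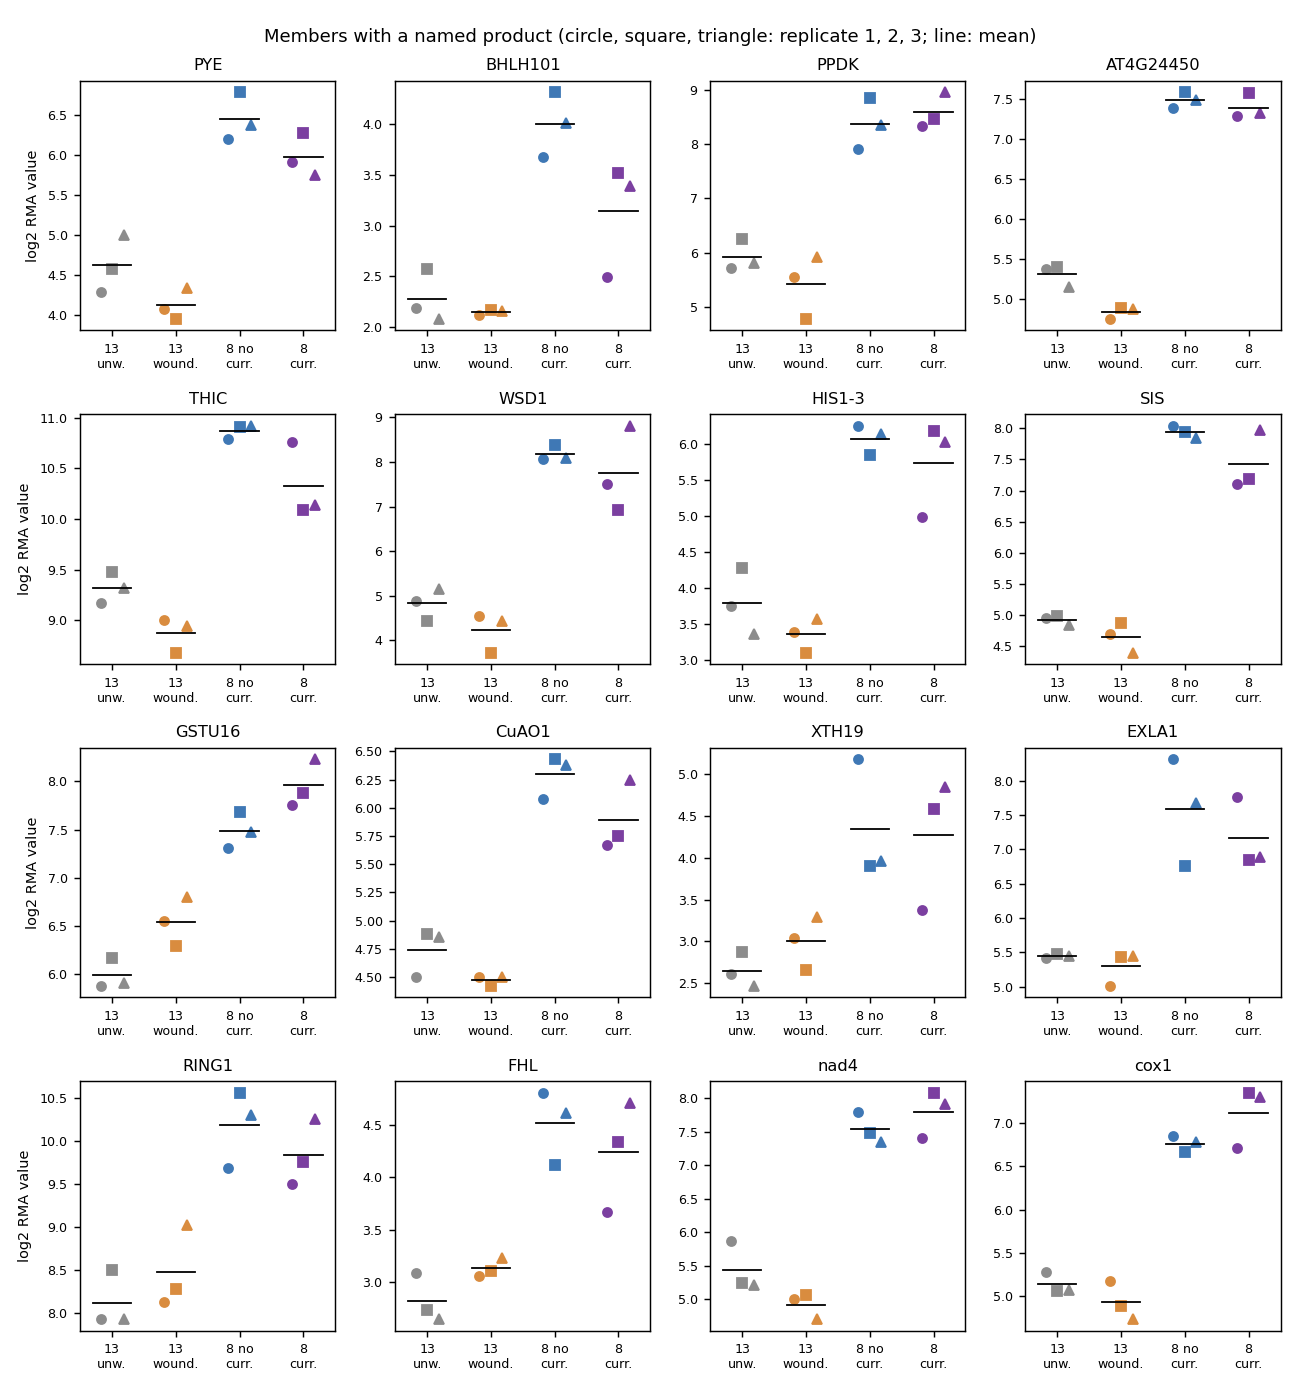
Log2 RMA values of the members with a named product other than SCPL49, on scales that differ between panels, with each array as a point and the group mean as a line. The leaf 8 arrays lie above the leaf 13 arrays in each panel except for BHLH101, where current replicate 1 at 2.49 falls within the leaf 13 range.

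Some members are neighbours in the genome, and whether this is more frequent than among other genes was not tested. AT1G30240, AT1G30250 and AT1G30260 follow each other in the reference order of protein-coding genes and differed by 1.61, 1.73 and 2.11 between wired leaf 8 and unwounded leaf 13. AT1G30260 read 7.82, 7.78 and 8.01 in unwounded leaf 13, 8.29, 8.33 and 8.62 after wounding, 9.98, 10.10 and 9.87 in wired leaf 8 and 10.27, 10.45 and 10.26 after current. Its groups were thus ordered with no overlap, although the last step, 0.34 (SE 0.11, limma adjusted p = 0.123), did not pass. The nearest measured gene after AT1G30260, AT1G30290, differed by 0.00. On the other side AT1G30210, AT1G30220 and AT1G30230 were not measured.

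AT5G52750 and AT5G52760 are also adjacent and differed by 1.71 and 2.05. Their flanking genes AT5G52740 and AT5G52770 differed by -0.01 and 0.01, so that neither flanking gene shared the raised level. After current the pair was at -0.22 (SE 0.13) and -0.67 (SE 0.28). AT1G22890 and AT1G22930, which lie 4 genes apart in that order, differed by 1.88 and 1.81 and were at 0.04 and 0.10 after current.

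The current comparison asks whether these genes change when current is passed into the wired leaf. Most of the raised level remained: the leaf 8 arrays after current lay above all 6 leaf 13 arrays for 69 of 75 genes (14.2% of all genes), and the mean after current exceeded unwounded leaf 13 by at least 1.5 for 47 of 75 (1.88% of all genes). Both counts share leaf 13 arrays with the rule and are descriptions. The 6 genes whose current arrays reached the leaf 13 range were AT3G28310, BHLH101, AT1G17665, AT4G30650, AT5G52760 and AT5G26270.

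In limma 5 of the 75 genes fell after current and 0 rose, that is 6.67% lower, where 1.58% of all genes were called lower and 2.38% higher. At an unadjusted p under 0.05, 24 were lower and 4 higher, 32.0% and 5.33% of the set, against 7.92% and 6.24% of all genes. The median change was -0.26 against -0.02 over all genes, and 56 of 75 changes lay below 0, against 55.8% of all genes. The current arrays lay wholly below the no-current arrays for 11 genes (9.59% of all genes) and wholly above for 2 (7.34% of all genes), and overlapped them for 62.

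The wound window removed 66 genes that were high in wired leaf 8, of which 15 were called higher after current. The count of 0 members called higher is therefore not independent of the rule. The no-current arrays also chose the members, and a gene that reads high there by chance is drawn downwards in this comparison. As a description, the genes were chosen again without replicate 1, 2 or 3 of each group, and the current mean was set against the no-current array left out. The median change was then -0.09, -0.27 and -0.15 over 72, 75 and 76 genes, with 39, 54 and 55 changes below 0, against -0.01 to -0.03 over all genes. Each of these medians rests on 1 no-current array, so they cannot give the size of the downward draw. In the arrays left out, wired leaf 8 exceeded unwounded leaf 13 by a median of 1.76, 1.71 and 1.98.

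**Figure D3:**
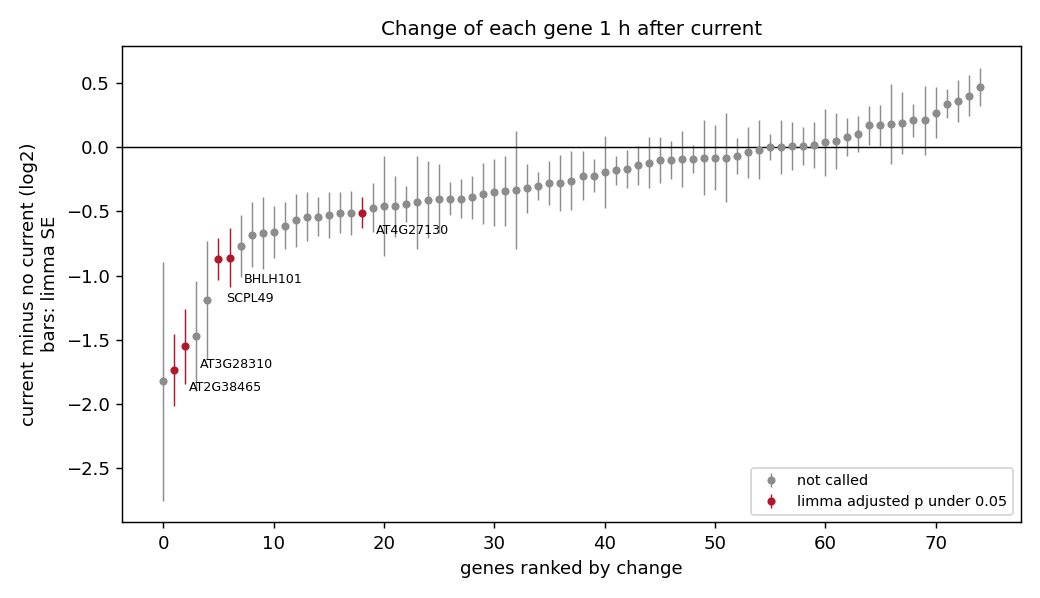
Change of each of the 75 genes after current, as current minus no current on the log2 scale with limma's SE, ranked from lowest to highest. The changes run from -1.82 to 0.47 with a median of -0.26, and the 5 genes called are marked in red, all below 0.

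AT2G38465 fell furthest among the genes called. It read 5.74, 5.19 and 5.43 in wired leaf 8 and 4.68, 3.33 and 3.16 after current, against 2.57, 2.83 and 2.89 in unwounded leaf 13. The groups did not overlap, and the change of -1.73 (SE 0.28, n = 3, limma adjusted p = 0.00246) is a 3.32-fold lower level. AT3G28310 showed the same order of group means, with 5.28, 4.25 and 4.46 before and 3.94, 2.84 and 2.55 after, a change of -1.55 (SE 0.29, limma adjusted p = 0.00697). Unlike AT2G38465, its current arrays reached the leaf 13 range. Its replicates 2 and 3 after current were within 0.3 of the unwounded mean of 2.63.

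SCPL49, a serine carboxypeptidase-like gene of the vacuolar carboxypeptidase Y type, read 8.11 on each no-current array and 7.74, 7.09 and 6.91 after current. Its change was -0.87 (SE 0.16, limma adjusted p = 0.00542), a 1.83-fold lower level, still above the 6.61 ± 0.05 of unwounded leaf 13. AT4G27130 had the smallest change called, from 8.71 ± 0.16 to 8.20 ± 0.15, at -0.51 (SE 0.12, limma adjusted p = 0.0312). Its call ended without current replicate 2 or 3 or no-current replicate 1 or 3 (limma adjusted p = 0.119, 0.101, 0.109 and 0.132). That of BHLH101 also ended without no-current replicate 2 or 3 (limma adjusted p = 0.164 and 0.128). Fitted on the leaf 8 arrays alone, AT2G38465 passed (limma adjusted p = 0.0405) and these other 4 genes did not (limma adjusted p = 0.0550 to 0.176).

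**Figure D4:**
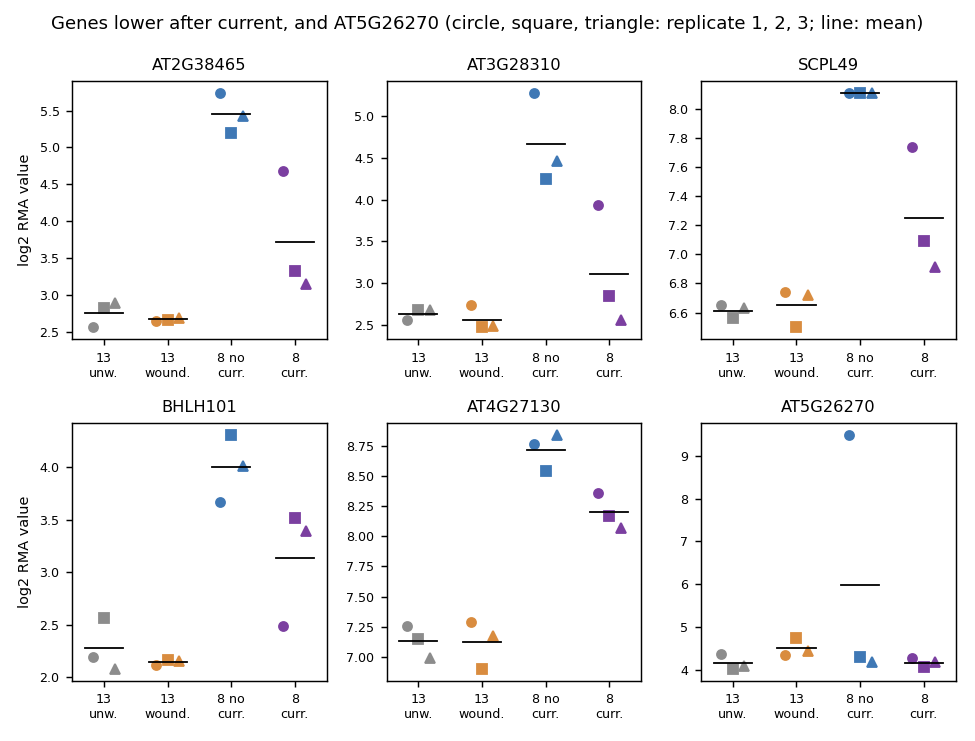
Log2 RMA values of the 5 genes lower after current and of AT5G26270, on scales that differ between panels, with each array as a point and the group mean as a line. For the 5 genes the current arrays lie below the no-current arrays, while for AT5G26270 a single no-current array at 9.49 stands apart from the other 11.

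The largest fall by size, -1.82 for AT5G26270 (SE 0.93, limma adjusted p = 0.424), rests on 1 array. It read 9.49 on no-current replicate 1 and 4.29 and 4.19 on the others, 4.27, 4.06 and 4.18 after current, and 4.02 to 4.74 in leaf 13. Without that array its change after current was -0.07, and it would not have met the rule. Without this gene 5 of 74 were called lower and the median change was -0.24.

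The current arrays differed among themselves more than the others. The SD between the 3 current arrays had a median of 0.34 over the 75 genes and 0.13 over all genes, against 0.21 and 0.12 for the no-current arrays. It was over 0.5 for 18 members after current and for 10 without, where 1.7% and 0.839% of all genes were as uneven. Current replicate 1 was the lowest current array for 44 members and replicate 3 the highest for 39.

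For 15 members current replicate 3 stood at least 0.5 above both other current arrays, for 7 replicate 1 did, and for 1, AT1G47400, replicate 2. AT1G47400 read 5.08, 7.30 and 5.21 after current and 6.96, 7.23 and 6.96 before, a change of -1.19 (SE 0.46, limma adjusted p = 0.217) that became -1.91 without replicate 2 (limma adjusted p = 0.00333). Without current replicate 1 or 3 it did not pass (limma adjusted p = 0.473 and 0.482). The 15 with replicate 3 high include AT5G53710, AT2G05540, AT3G23450, WSD1 and SIS. The 7 with replicate 1 high include AT2G38465, AT3G28310, SCPL49, THIC, EXLA1 and AT1G17665.

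AT1G17665 read 5.34, 4.94 and 5.15 before current and 5.22, 3.07 and 2.74 after it, against 2.61, 2.60 and 2.53 in unwounded leaf 13. Replicate 1 thus kept the level of the wired leaves while the others neared leaf 13, and the change of -1.47 (SE 0.43, limma adjusted p = 0.0745) was not called. Without current replicate 1 it was -2.24 (limma adjusted p = 1.75e-06). With current replicate 2 or 3 left out it was not called (limma adjusted p = 0.306 and 0.235). The cold-regulated gene COR27 and AT4G33980, outside the set by rule, read 8.23, 5.99 and 4.07 and 6.48, 3.48 and 3.15 on the same 3 arrays, so that replicate 1 was the highest there too.

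The wound comparison set a limit on the members and is given as a description. Their changes after distal wounding ran from -0.59 to 0.58 with a median of -0.06, and 44 were below 0. At the lower end of that window lay WSD1 and AT5G52750, at -0.59 and -0.58. At the upper end lay AT1G14780 and AT2G15960, at 0.58 and 0.57, whose current arrays overlapped the no-current arrays. GSTU16 and AT1G30260, at 0.55 and 0.54, had current arrays wholly above the no-current arrays. AT1G20070 and AT4G30650, also at 0.55 and 0.54, did not.

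A further 66 genes were at least 1.5 higher in wired leaf 8 but moved by more than 0.6 after wounding, 46 upwards and 20 downwards. The exclusions by name and by plastid origin were applied to the 75 but not to these 66. After current 15 of the 66 were called higher and 3 lower, with a median change of 0.16. Of the 75, 0 were called higher and 5 lower, with a median of -0.26. Over all genes 2.38% were called higher and 1.58% lower. The difference between these sets was not tested.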

How the data were processed

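The values deposited by the authors are log2 RMA expression values of Affymetrix ATH1 arrays, produced by RMA through Affymetrix Power Tools, as the submitters' processing notes list; versions are not given in the sources used here. The log2 scale follows from RMA and fits the range of 1.46 to 13.3. RMA equalises the arrays and compresses differences near the bottom of the range. The precision is limited by the number of arrays, 3 in each group.

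Of 22810 probe sets, 64 were controls, 13513 had 1 gene in the platform annotation, 503 several and 8730 none there; the latter 2 kinds were not used. Probe sets of a gene were averaged, giving 13356 genes, of which 13286 matched the RefSeq gene table (TAIR10.1) used for symbols and gene order. No member has more than 1 probe set, or one of the kind that Affymetrix marks as shared between genes. That table holds symbols and synonyms but no product text, so the planned classes by key word were not applied: 58 of 75 members have a locus identifier alone (88.3% of all genes), and those with a symbol or product name, AT4G24450 included, were described singly. No promoter or protein sequences were used here, so the planned motif search was not run.

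Tests used limma 3.58.1 under R 4.3.3, with 1 mean per group over all 12 arrays, variances moderated by eBayes (8 residual degrees of freedom and 6.31 of the prior), two-sided tests and Benjamini-Hochberg adjustment over all 13356 genes at 0.05. The procedure was tested on simulated data. Named genes are the 15 largest differences, all called genes, the 3 largest changes each way, the 3 on each side of the limit, list members and, added after their values were seen, members with a product name, neighbours and uneven genes. The members and lists were chosen with earlier results of these data known, and the iron list after the members had been seen.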

Additional observations from a re-analysis of the deposited data

How the results depend on the processing

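The rule gave 75 genes, and 217 or 34 with a limit of 1.0 or 2.0 and 44 with a wound window of 0.3. Quantile normalization, median centring, group medians or the brightest probe set gave 64 to 77, and leaving out 1 array 69 to 79. After current 5 members were lower, and 10 with array weights, 2 on the leaf 8 arrays alone, 2 without the dimmest 50% of genes (which removes 12 members), 18 with the limit at 1.0 and 2 with it at 2.0. On the leaf 8 arrays alone these were AT2G38465 and AT4G33540 (limma adjusted p = 0.0405 and 0.044), the latter not called in the main fit. Without the dimmest 50% they were SCPL49 and AT4G27130, as AT2G38465, AT3G28310 and BHLH101 were among the members removed. Without 1 array the count was 4 to 9, highest at 9 and 8 without current replicate 1 and 3, and 0 to 1 were higher, the 1 being cox1. BHLH101 missed the threshold after median centring, after quantile normalization and under a robust trend, at limma adjusted p = 0.0512, 0.0642 and 0.0826. The median change ran from -0.33 to -0.09 over the alternatives, those chosen after seeing the data included. Without 1 array AT5G53710 ran from -0.50 to 0.17, HIS1-3 from -0.56 to 0.03, AT1G53100 from -0.63 to 0.05 and AT1G30250 from -0.06 to 0.06. The cause of these differences was not tested. With the replicate number as a block 6 members were lower, AT1G17665 being added (limma adjusted p = 0.0450). Deviations of same-numbered no-current and current arrays from their group means correlated with r of -0.02, 0.04 and -0.07. No no-current array correlated best with the current array of its own number, and of the current arrays only replicate 2 did so. With 3 arrays in each group these values cannot decide whether the numbers pair the arrays, and the main fit used no pairing.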
